A study of Mus musculus with 12 samples.

Results

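The 37 genes described here are imprinted genes of the mouse that lie outside the H19-Igf2, Igf2r and Dlk1-Dio3 loci. They were taken by symbol from the 24421 gene symbols that both deposited count tables hold, and all 37 were found. By textbook parental origin, 15 are expressed from the maternal and 22 from the paternal copy. The libraries are RNA-seq of mouse embryonic stem cells (ESCs) that are haploid and androgenetic, so their only chromosome set comes from a father. All are on a C57BL/6 background. Wild-type (WT) cells of the parental line OdG gave 2 libraries, and 2 Etl4 knockout (KO) lines made in OdG, here line 1 and line 2, gave 2 libraries each. Wild-type cells of the parental line EG1 gave 3 libraries and 1 Etl4 KO line made in EG1 gave 3. Each KO line is thus a single line, the labels do not describe the edit, and both KO lines of OdG were compared with the same WT libraries. Per its title, the study found through a genetic screen that loss of Etl4 helps such cells to stay haploid.

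Genomic imprinting is the expression of a gene from the copy inherited from 1 parent only. It is set by DNA methylation, laid down in the egg or the sperm at imprinting control regions, and kept after fertilisation by factors such as the zinc finger protein ZFP57 with its partner TRIM28 and the maintenance methyltransferase DNMT1. A few genes, among them Gab1, Slc38a4 and Sfmbt2, are instead silenced on the maternal copy by the histone mark H3K27me3, mostly in extraembryonic tissue. A genome of paternal origin lacks the maternal methylation, so paternally expressed genes are on their active copy and maternally expressed genes on the copy that is normally silent. Several maternally expressed genes, among them Ube3a, Osbpl5, Cd81 and Tssc4, are imprinted only in neurons or placenta and are expressed from both copies elsewhere. Imprints of cultured ESCs are known to be unstable.

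Libraries held 16110028 to 19706599 counts, so that a level of 1 CPM (counts scaled by library size) stood for 16.1 to 19.7 counts. Etl4 lay at 204 to 209 CPM in OdG WT, 96.1 to 100 in line 1, 108 to 113 in line 2, 262 to 267 in wild-type EG1 and 132 to 135 in its KO. The 8 ESC markers summed to 5760 to 5910 CPM in OdG WT, 6490 to 6570 in line 1, 6170 in both libraries of line 2, and 7970 to 8230 in EG1, and none of them was under 1 CPM in any group. Sums of 11 fibroblast (feeder) markers were 115 to 122 CPM in OdG WT, 75.9 to 78.9 in line 1, 41.4 to 42.8 in line 2, 25.5 to 27.7 in wild-type EG1 and 26 to 29.1 in EG1 KO. Most of the fibroblast sum in OdG was Fbln2 (68.2 CPM in OdG WT, 40.9 in line 1) and Pdgfrb (30.3 and 15.2). By the calls defined below, only these 2 of 6 markers tested were lower in line 1. Col1a1 and Acta2 fell in line 2 but were not called in line 1 (log2 0.13 and 0.33). In EG1 WT against OdG WT 5 of the 6 were lower, and Thy1 was higher (log2 0.7). Of the 11 fibroblast markers, 5 were under 1 CPM in each OdG group and 7 in each EG1 group. The fibroblast collagen gene Col3a1 had 3 counts or fewer in any group. Sums of 9 trophoblast markers were 105 to 107, 124 to 128, 91.1 to 98.3, 9.59 to 11.1 and 13.1 to 16.2 CPM in the same order. Most of that sum in OdG was Cdx2 (83.0 CPM in OdG WT, 110.0 in line 1, 84.1 in line 2, 1.23 in EG1 WT, 1.38 in EG1 KO), while the placental genes Tpbpa and Prl3d1 had 0 counts in every library. Sums of 8 primitive endoderm markers were 14.5 to 14.9 CPM in OdG WT and between 8.34 and 11.1 in the other 10 libraries. All of these sums therefore move with the groups compared below, and their part in the results was not tested. Whether replicates are separate cultures is not stated in the labels, and the spread behind every p-value may be technical.

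Of the 37 genes, 32 reached a mean of 1 CPM in at least 1 of the 5 groups. The other 5 were the maternally expressed Slc22a18, Slc22a3, Klf14 and Zim1 and the paternally expressed Snrpn. Slc22a18 lay at 0.154 to 0.874 CPM and Zim1 at 0.370 to 0.983 CPM by group mean. Slc22a3 had between 1 and 5 counts per group, Klf14 between 0 and 2, and Snrpn between 0 and 8. A count of 3 over a whole group corresponds to between 0.0545 and 0.0897 CPM before TMM scaling, so Klf14 was at or below that limit in every group. Snrpn shares exons with Snurf, which had 0 counts over all 12 libraries, and the sources used here do not say how reads on shared exons were counted. The Snrpn count is therefore not read as its level. Ube3a overlaps the antisense transcript Snhg14, which had 300 to 844 counts per library.

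Maternally expressed genes were detected in these cells, at a lower typical level than the paternally expressed ones. By the length-scaled level (CPM per kilobase of annotated exon), the median of the 15 maternally expressed genes was 2.62 in OdG WT, 2.20 in line 1, 2.70 in line 2, 1.99 in EG1 WT and 1.62 in EG1 KO. For the 22 paternally expressed genes the medians were 7.01, 9.30, 9.38, 7.88 and 8.38. Over all genes with a length the median lay between 0.560 and 0.712. At least 1 CPM was reached by 11 of 15 maternally expressed genes in each OdG group and by 9 of 15 in each EG1 group, against 18 of 22 paternally expressed genes in each OdG group, 21 of 22 in EG1 WT and 20 of 22 in EG1 KO. On the length-scaled level Cd81, a tetraspanin of the cell surface, was the highest maternally expressed gene in every group (61.8 per kilobase in OdG WT, 128 in EG1 WT). Peg10, a gene derived from a retrotransposon and needed in the placenta, was the highest paternally expressed gene in each OdG group (118 per kilobase in OdG WT). In EG1 WT it lay at 6.98, below the median of its class (7.88). The highest paternally expressed genes there were Slc38a4, Gab1, Impact and Plagl1.

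**Figure D1:**
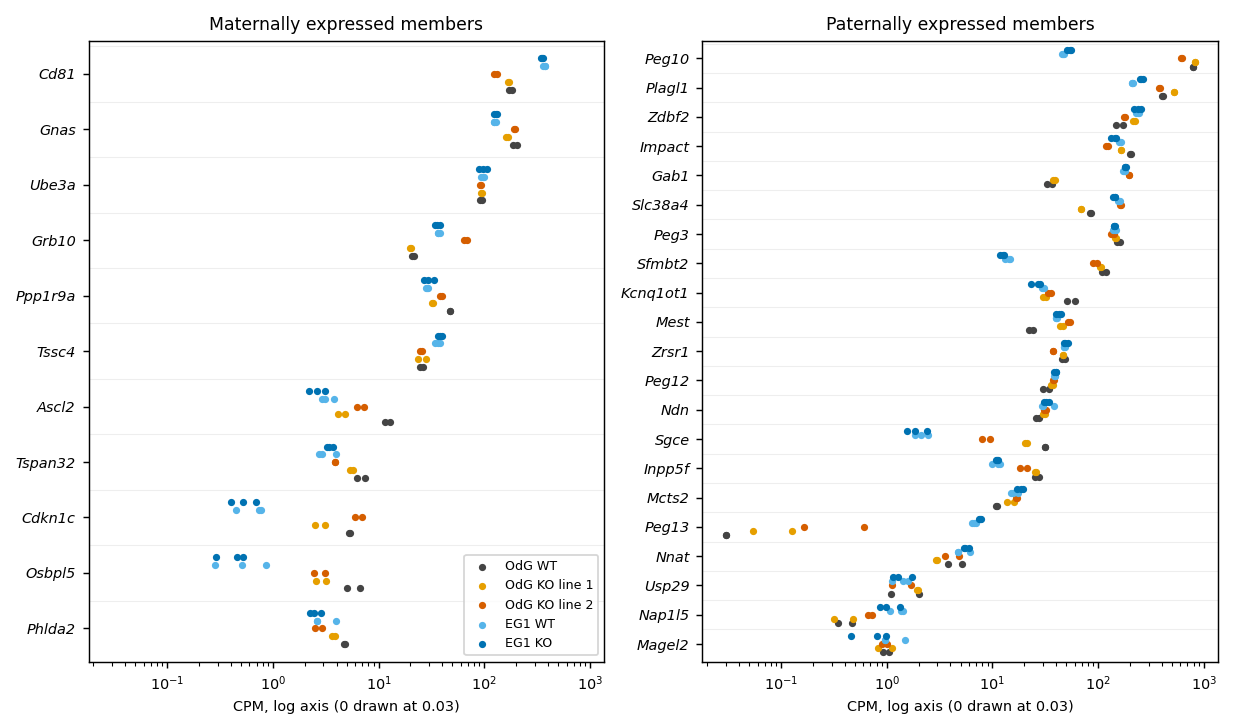
CPM of each library (points, log axis, 0 drawn at 0.03) for the 32 genes that reached a mean of 1 CPM in a group, coloured by group, with maternally expressed genes on the left and paternally expressed genes on the right. Peg10, Sgce, Sfmbt2 and Gab1 split into well separated groups, whereas Ube3a, Peg3 and Ndn lie close together in all 12 libraries.

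In OdG, the maternally expressed genes that changed in line 1 all fell, while paternally expressed genes moved both ways. A gene is called changed here at an adjusted p under 0.05 in edgeR's quasi-likelihood test (Benjamini-Hochberg over all genes of the fit). Of 33 genes tested in OdG, 19 were called in line 1 (7 higher, 12 lower), a share to be read against 52.8% of all 14413 genes (26.8% higher, 26.1% lower). Among 13 maternally expressed genes 0 rose and 7 fell (Ascl2, Osbpl5, Cdkn1c, Ppp1r9a, Gnas, Slc22a18 and Zim1), with a median log2 fold change of -0.35. The calls of Slc22a18 and Zim1, both under 1 CPM, were lost with DESeq2 (adjusted p = 0.16 and 0.26). Ascl2, Osbpl5, Cdkn1c and Slc22a18 lie in the same domain, described below. Among 20 paternally expressed genes 7 rose (Mest, Zdbf2, Mcts2, Plagl1, Ndn, Peg12 and Gab1) and 5 fell (Kcnq1ot1, Sgce, Nnat, Slc38a4 and Impact). All genes tested had a median of -0.01. The genes called made up a share close to the background in line 1, and a count of this size over 33 genes is no result about them as a whole.

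In line 2, 24 of 33 genes were called (8 higher, 16 lower), against 59.9% of all genes (30.0% higher, 29.8% lower). Of 13 maternally expressed genes, Grb10 rose and 7 fell (Ascl2, Osbpl5, Phlda2, Tspan32, Cd81, Ppp1r9a and Zim1), with a median log2 fold change of -0.47. Of 20 paternally expressed genes 7 rose (Gab1, Mest, Slc38a4, Mcts2, Ndn, Peg12 and Zdbf2) and 9 fell (Sgce, Impact, Kcnq1ot1, Inpp5f, Peg10, Zrsr1, Sfmbt2, Peg3 and Plagl1), with a median of -0.09. The lists of both lines rest on the same WT libraries, and a WT value that is high or low enters both.

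**Figure D2:**
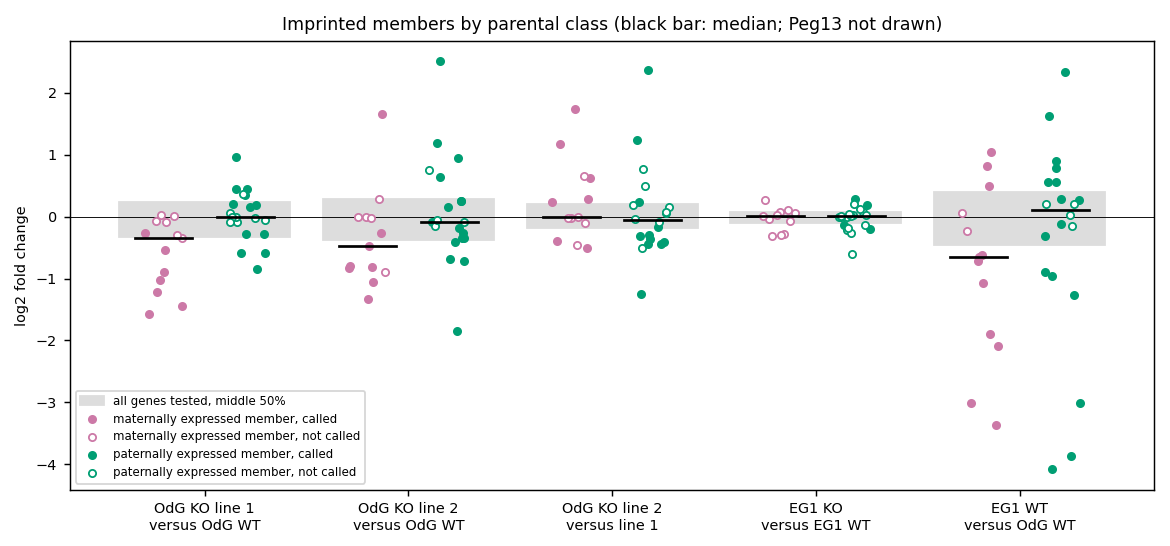
Log2 fold change of each gene (points, filled where called) in 5 comparisons, with the median of each parental class as a black bar and the middle 50% of all genes tested as a grey band. The bar of the maternally expressed genes lies at -0.35 in line 1, -0.47 in line 2 and -0.65 in EG1 WT against OdG WT, while the points of EG1 KO against EG1 WT crowd around 0. Peg13 is left out because its OdG WT libraries hold 0 counts.

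The Kcnq1 domain on chromosome 7 held 9 of the 37 genes, 8 of them maternally expressed. There the paternally expressed noncoding RNA Kcnq1ot1 is transcribed from the paternal copy and silences its neighbours on that copy. Kcnq1ot1 (GRCm38, chromosome 7, 143203458 to 143296549, minus strand) was at 51.2 and 60.6 CPM in OdG WT, 32.0 and 30.3 in line 1 and 35.7 and 33.3 in line 2. In EG1 it was at 30.6, 30.0 and 29.6 CPM in WT and 28.1, 23.1 and 27.0 in KO. OdG WT thus stood above the other 10 libraries, with no overlap. The log2 fold change was -0.84 ± 0.0804 (SE) in line 1 (adjusted p = 1.4e-07) and -0.69 ± 0.0793 in line 2 (adjusted p = 8.8e-07).

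None of the maternally expressed genes of the set in this domain was called higher in either KO line of OdG. Other protein-coding genes of the region, such as Nap1l4, are outside the set and are not counted here. Over the 9 genes of the domain, Kcnq1ot1 included, 0 were called higher and 5 lower in line 1. Their median log2 fold change was -0.84, the value of Kcnq1ot1 itself. In line 2, 0 were called higher and 6 lower, with a median of -0.80. The maternally expressed genes of the domain ran from -1.57 (Slc22a18) to 0.02 (Tssc4) in line 1 and from -1.05 (Osbpl5) to 0.28 (Cdkn1c) in line 2. Of all genes, 26.1% fell in line 1 and 29.8% in line 2. Slc22a18, among the 5 that fell in line 1, lost its call with DESeq2 (adjusted p = 0.16) and without OdG WT replicate 1 (adjusted p = 0.091) or line 1 replicate 2 (adjusted p = 0.22). Ascl2, a transcription factor of trophoblast, was at 11.6 and 12.8 CPM in OdG WT, 4.09 and 4.85 in line 1 and 6.27 and 7.31 in line 2. It was at 3.80, 3.10 and 2.90 CPM in EG1 WT and 2.18, 2.64 and 3.09 in EG1 KO. The 3 OdG groups did not overlap, and every EG1 library lay below every OdG library. Its log2 fold change was -1.45 ± 0.145 in line 1 (adjusted p = 2.2e-07) and -0.83 ± 0.134 in line 2 (adjusted p = 3.9e-05).

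Cdkn1c encodes the cell cycle inhibitor p57, and it set the KO lines apart. It was at 5.24 and 5.42 CPM in OdG WT, 3.12 and 2.52 in line 1 and 6.99 and 5.93 in line 2. In EG1 WT it lay at 0.737, 0.452 and 0.763 CPM and in EG1 KO at 0.689, 0.401 and 0.525. Line 1 was thus the lowest OdG group and line 2 the highest, and the 6 EG1 libraries were all under 1 CPM. Cdkn1c fell in line 1 (log2 -0.90 ± 0.187, adjusted p = 0.00058) and was not called in line 2 (0.28 ± 0.16), and line 2 exceeded line 1 by 1.18 ± 0.18 (adjusted p = 5.3e-05). The ratio of Cdkn1c to Kcnq1ot1 counts was 0.0895 to 0.102 in OdG WT, 0.0832 to 0.0975 in line 1, 0.178 to 0.196 in line 2, 0.0150 to 0.0258 in wild-type EG1 and 0.0173 to 0.0245 in EG1 KO. By this ratio line 1 overlapped OdG WT, line 2 lay above both, and EG1 lay below all OdG libraries. Of the annotated exon bases of Cdkn1c, 30.7% are shared with Gm44732 on the other strand. Reads there cannot be assigned without the strand setting.

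Osbpl5, an oxysterol-binding protein gene imprinted in placenta, was at 6.63 and 5.07 CPM in OdG WT, 2.58 and 3.15 in line 1, 2.47 and 3.10 in line 2, and 0.283 to 0.865 in the 6 EG1 libraries. It fell by 1.03 (SE 0.201) on the log2 scale in line 1 and by 1.05 (SE 0.202) in line 2, and the lines overlapped each other. Phlda2, a growth inhibitor of the placenta, was at 4.78 and 4.72 CPM in OdG WT, 3.60 and 3.84 in line 1 and 2.89 and 2.49 in line 2. It fell in line 2 (log2 -0.81 ± 0.188, adjusted p = 0.0013) and was not called in line 1 (-0.35 ± 0.177). Tspan32, another tetraspanin gene, was at 6.22 and 7.37 CPM in OdG WT, 5.33 and 5.67 in line 1 and 3.86 and 3.88 in line 2, and it fell in line 2 (log2 -0.80 ± 0.162) and was not called in line 1 (-0.30 ± 0.152). For these 3 genes OdG WT was the highest of the OdG groups, without overlap with either line. With 2 libraries per group this held also for Phlda2 and Tspan32 in line 1, where neither was called. The share of such separation over all genes was not counted.

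Cd81 and Tssc4, which lie next to each other in the domain, were higher in EG1 than in OdG. Cd81 was at 173 and 183 CPM in OdG WT, 170 and 166 in line 1, 124 and 131 in line 2, 358, 374 and 375 in EG1 WT and 358, 347 and 351 in EG1 KO. Like Phlda2 and Tspan32, it fell in line 2 (log2 -0.47 ± 0.0432, adjusted p = 4.7e-08) and was not called in line 1 (-0.07 ± 0.0422). Unlike them, it was 2.08-fold higher in EG1 WT than in OdG WT (adjusted p = 5.4e-21). Tssc4 was at 23.8 to 27.8 CPM in the 6 OdG libraries and at 34.0 to 40.0 in the 6 EG1 libraries, and neither KO line of OdG was called (log2 0.02 ± 0.0884 and 0.00 ± 0.0886). Of the annotated exon bases of Tssc4, 11.9% are shared with the antisense Trpm5. The strand setting of the counting is not given, so reads there cannot be assigned.

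Between the parental lines, all 9 genes of the Kcnq1 domain were called, 2 higher in EG1 WT (Cd81 and Tssc4) and 7 lower, where 70.3% of all genes were called. The lower ones ran from Phlda2 (log2 -0.62 ± 0.19) to Osbpl5 (-3.36 ± 0.277, or 10.3-fold) and Cdkn1c (-3.01 ± 0.242, or 8.08-fold), and Kcnq1ot1 itself was 1.86-fold lower (adjusted p = 3e-12). In EG1 KO, where 7.66% of all genes were called, 0 of the 7 genes tested were, with log2 fold changes from -0.31 (Ascl2) to 0.10 (Tspan32). The fibroblast and trophoblast marker sums given above were also lower in EG1 than in OdG, and the primitive endoderm sum was highest in OdG WT. The fibroblast sum was lower in line 2 than in line 1 and in line 1 than in OdG WT. In line 1 only Fbln2 and Pdgfrb of the fibroblast markers were called lower. The part of these sums in the values of this domain was not tested. In bulk RNA, fewer cells that express a gene and less RNA per cell cannot be told apart.

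**Figure D3:**
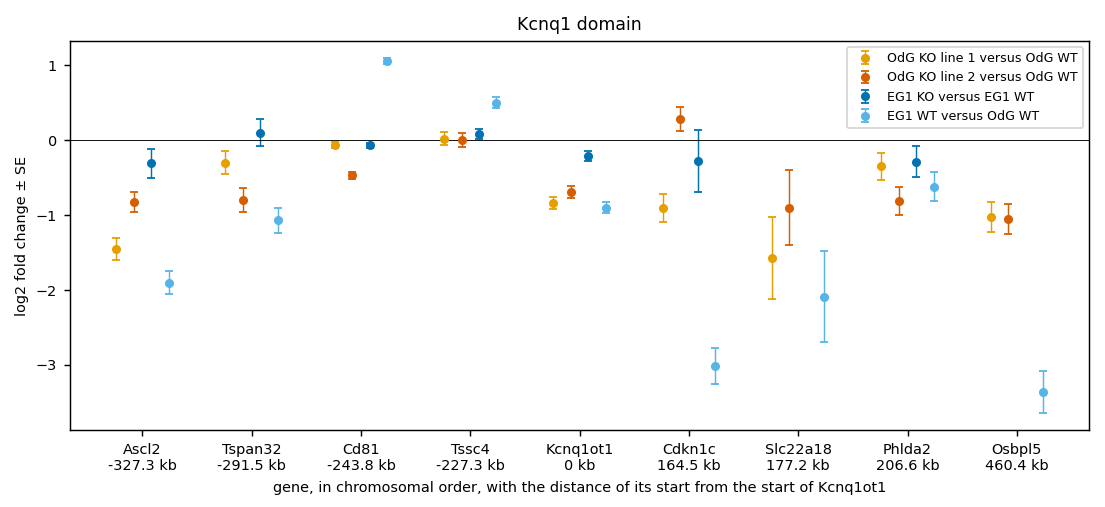
Log2 fold change (points) with its standard error (bars) for the 9 genes of the Kcnq1 domain in chromosomal order, each labelled with the distance of its start from the start of Kcnq1ot1, in 4 comparisons. Ascl2, Kcnq1ot1 and Osbpl5 lie below 0 in both KO lines of OdG, and Cdkn1c and Osbpl5 lie near -3 in EG1 WT against OdG WT, where Cd81 lies near 1.

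Outside that domain, Grb10 was the maternally expressed gene with the largest difference between KO lines. It encodes an adaptor that damps insulin and growth factor signalling, and has a paternally expressed form in neurons. Grb10 (chromosome 11, 11930508 to 12038683, minus strand) was at 20.6 and 21.8 CPM in OdG WT and 19.7 and 20.4 in line 1, but at 68.0 and 64.7 in line 2. In EG1 it was at 36.4, 36.6 and 38.2 CPM in WT and 35.4, 34.4 and 38.2 in KO. Line 2 was above all other libraries and EG1 lay in between. The rise in line 2 was 3.15-fold (log2 1.66 ± 0.07, adjusted p = 2e-12), line 1 was not called (-0.08 ± 0.0819), and EG1 WT exceeded OdG WT 1.75-fold (adjusted p = 1.6e-11). Counts per gene do not separate the forms of Grb10.

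Gnas, which encodes the stimulatory G protein alpha subunit and several overlapping imprinted transcripts, was at 185 and 206 CPM in OdG WT, 166 and 160 in line 1, 194 and 189 in line 2, 123 to 128 in wild-type EG1 and 123 to 132 in EG1 KO. It fell in line 1 (log2 -0.26 ± 0.0473, adjusted p = 0.00016), was not called in line 2 (-0.02 ± 0.0468) and was 1.57-fold lower in EG1 WT than in OdG WT (adjusted p = 2.8e-14). Ppp1r9a, a regulator of protein phosphatase and actin, was at 47.3 and 47.4 CPM in OdG WT, 32.7 and 32.2 in line 1, 40.0 and 38.5 in line 2, and 27.1 to 33.7 in the 6 EG1 libraries. It fell in line 1 (log2 -0.54 ± 0.0651) and, less far, in line 2 (-0.26 ± 0.0634), and line 2 exceeded line 1 by 0.28 ± 0.0665 (adjusted p = 0.0031). Ube3a, a ubiquitin ligase, stayed between 88.4 and 106 CPM in all 12 libraries and was called in 0 of the 6 comparisons. The low Zim1, a zinc finger gene, passed the threshold in both KO lines of OdG (log2 -1.22 ± 0.48 and -1.33 ± 0.488), but the calls were lost with DESeq2 (adjusted p = 0.26 and 0.19) and when single libraries were left out.

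Gab1, Slc38a4 and Sfmbt2 are the genes of the set known for imprinting by H3K27me3. Their annotated upstream sequences (RefSeq, GRCm38.p6) are shown with those of Mest and Grb10, whose imprints rest on DNA methylation, because these genes differ between the KO lines or from OdG WT. Letters are lower case except CG pairs, the sites of DNA methylation, which are in capitals. Each sequence is the 250 bases before an annotated start, read 5′ to 3′ on the gene's strand, except for Gab1, where 21 annotated exon bases were removed and 229 remain. The first Gab1 entry lies at chr8:80880520-80880748 on the minus strand and holds 23 CG pairs. Slc38a4 lies at chr15:97055957-97056206 on the minus strand and holds 3. Sfmbt2 lies at chr2:10370201-10370450 on the plus strand and holds 8. Mest lies at chr6:30737800-30738049 on the plus strand and holds 14, and Grb10 lies at chr11:12037421-12037670 on the minus strand and holds 40. Each of these genes has other annotated starts, which are not printed. Those hold 23 CG pairs for Gab1, 5 and 5 for Slc38a4, 15 for Sfmbt2 and 8 for Grb10. For Mest the second entry is printed. The first, of 198 bases after removal of exon bases, holds 4, and the third, of 247 bases, holds 14.
Gab1: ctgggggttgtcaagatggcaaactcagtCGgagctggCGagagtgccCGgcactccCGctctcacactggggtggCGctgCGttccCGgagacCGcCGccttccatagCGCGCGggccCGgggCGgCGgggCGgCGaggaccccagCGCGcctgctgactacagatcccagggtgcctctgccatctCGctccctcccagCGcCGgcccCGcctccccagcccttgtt
Slc38a4: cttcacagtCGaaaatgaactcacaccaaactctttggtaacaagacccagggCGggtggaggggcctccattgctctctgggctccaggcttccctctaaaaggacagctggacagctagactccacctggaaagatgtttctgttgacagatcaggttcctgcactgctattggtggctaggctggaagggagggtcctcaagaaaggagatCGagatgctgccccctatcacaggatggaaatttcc
Sfmbt2: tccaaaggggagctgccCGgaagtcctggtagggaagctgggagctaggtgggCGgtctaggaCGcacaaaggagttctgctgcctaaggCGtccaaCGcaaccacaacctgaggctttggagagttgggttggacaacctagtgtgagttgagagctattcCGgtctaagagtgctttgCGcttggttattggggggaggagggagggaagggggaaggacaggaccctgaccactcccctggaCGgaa
Mest: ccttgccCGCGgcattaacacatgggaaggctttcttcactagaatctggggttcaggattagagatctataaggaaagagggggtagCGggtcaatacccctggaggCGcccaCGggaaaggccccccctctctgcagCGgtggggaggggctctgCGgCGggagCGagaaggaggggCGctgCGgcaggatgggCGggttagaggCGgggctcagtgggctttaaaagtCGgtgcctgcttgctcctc
Grb10: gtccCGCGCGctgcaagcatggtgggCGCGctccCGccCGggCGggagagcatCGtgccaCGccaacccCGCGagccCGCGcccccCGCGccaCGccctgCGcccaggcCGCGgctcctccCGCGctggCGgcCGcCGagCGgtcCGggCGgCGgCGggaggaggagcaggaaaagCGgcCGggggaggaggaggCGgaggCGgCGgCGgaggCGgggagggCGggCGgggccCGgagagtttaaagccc
The printed Slc38a4 sequence has few CG pairs (71.0% of all RefSeq windows of that length hold at least as many), and the printed Grb10 sequence many (1.31% hold at least as many). At the starts not printed these shares were 55.6% for both Slc38a4 entries and 43.0% for Grb10. The expression tables hold no methylation or histone data, so the letters describe the loci only.

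Gab1, an adaptor of receptor tyrosine kinases that is needed for placental growth, had 2 well separated levels. It was at 36.7 and 32.5 CPM in OdG WT and 37.6 and 39.3 in line 1. In line 2 it was at 197 and 196 CPM, in EG1 WT at 180, 174 and 171, and in EG1 KO at 181, 178 and 182. Line 2, although made in OdG, thus lay slightly above EG1, with no overlap with line 1 or OdG WT. The rise in line 2 was 5.71-fold (log2 2.51 ± 0.0514, adjusted p = 1.4e-16), line 2 exceeded line 1 by 5.13-fold (adjusted p = 9e-16), and EG1 WT exceeded OdG WT by 5.06-fold (adjusted p = 5.9e-27). In line 1 the call was marginal (log2 0.15 ± 0.0625, adjusted p = 0.047) and was lost with DESeq2 (adjusted p = 0.14), and EG1 KO was not called (0.04 ± 0.0365).

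Slc38a4, an amino acid transporter of the placenta, also stood high in line 2 and in EG1. OdG WT had 83.9 and 85.4 CPM, line 1 had 69.5 and 69.2, line 2 had 162 and 163, EG1 WT had 160, 153 and 158 and EG1 KO had 138, 145 and 144. Line 1 was the lowest group, and line 2 stood with the EG1 groups. It fell in line 1 (log2 -0.28 ± 0.043, adjusted p = 2.8e-05), rose 1.93-fold in line 2 (0.95 ± 0.0393, adjusted p = 1.6e-12) and was 1.86-fold higher in EG1 WT than in OdG WT. In EG1 KO it fell by a small amount (log2 -0.14 ± 0.0379, adjusted p = 0.016). That call was lost without EG1 WT replicate 1 (adjusted p = 0.099) or replicate 3 (adjusted p = 0.078).

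Sfmbt2, a Polycomb group gene of trophoblast, went the other way between the parental lines. It was at 118 and 109 CPM in OdG WT, 107 and 105 in line 1 and 90.0 and 97.5 in line 2, against 13.2, 14.8 and 14.2 in EG1 WT and 12.6, 11.7 and 12.8 in EG1 KO. OdG and EG1 did not overlap, and EG1 WT was 8.06-fold lower than OdG WT (log2 -3.01 ± 0.0625, adjusted p = 2.7e-27). Within OdG it fell in line 2 (-0.27 ± 0.0493, adjusted p = 0.00017) and was not called in line 1 (-0.09 ± 0.0486). Within EG1 it was not called (-0.19 ± 0.092).

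**Figure D4:**
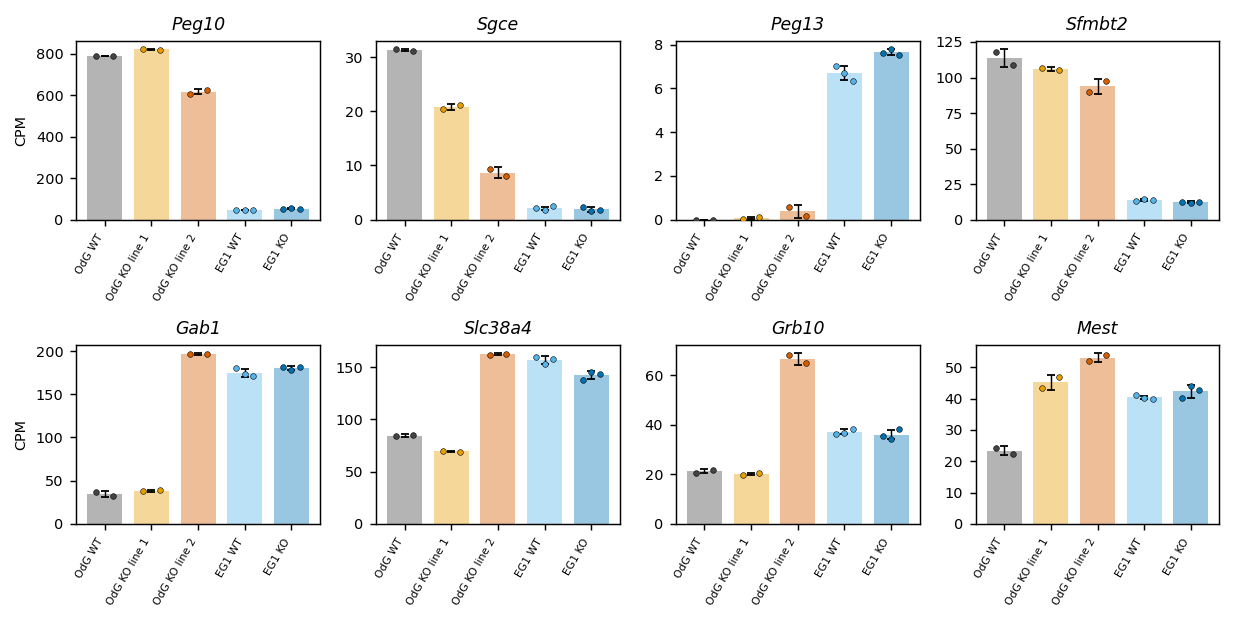
CPM of 8 genes by group, with each library as a point, the group mean as a bar from 0 and the SD as an error bar (2 libraries in each OdG group, 3 in each EG1 group). Gab1, Slc38a4 and Grb10 are higher in OdG KO line 2 than in OdG WT and line 1, Peg10, Sgce and Sfmbt2 are far lower in EG1 than in OdG WT, Peg13 is seen in EG1, and Mest is lowest in OdG WT.

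Peg10 and Sgce share a control region and are transcribed away from each other on chromosome 6 (Peg10 from 4747306, plus strand, and Sgce, which encodes epsilon-sarcoglycan of the cell membrane, ending at 4747207, minus strand). Peg10 was at 788 and 789 CPM in OdG WT, 821 and 820 in line 1 and 608 and 627 in line 2, but at 46.8, 45.4 and 47.3 in EG1 WT and 50.8, 55.3 and 53.6 in EG1 KO. It was 16.9-fold lower in EG1 WT than in OdG WT (log2 -4.08 ± 0.0381, adjusted p = 5.8e-36). Sgce was at 31.4 and 31.2 CPM in OdG WT, 20.4 and 21.2 in line 1, 9.40 and 7.98 in line 2, 2.1, 1.86 and 2.44 in EG1 WT and 2.41, 1.55 and 1.87 in EG1 KO. Its 3 OdG groups formed separate steps and EG1 lay below them all, 14.6-fold lower in WT (adjusted p = 2.1e-22).

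Within OdG the pair did not fall in step. Line 1 left Peg10 uncalled (log2 0.06 ± 0.0282) while Sgce fell (-0.59 ± 0.0846, adjusted p = 1.5e-05). In line 2 Peg10 fell by 0.34 (SE 0.0284) and Sgce by 1.84 (SE 0.0978) on the log2 scale. The ratio of Peg10 to Sgce counts was 25.1 to 25.3 in OdG WT, 38.7 to 40.3 in line 1, 64.7 to 78.5 in line 2, 19.4 to 24.4 in wild-type EG1 and 21.1 to 35.7 in EG1 KO. Peg10 rose slightly in EG1 KO (log2 0.19 ± 0.0536, adjusted p = 0.021), with every KO library above every WT library. That call was lost with DESeq2 (adjusted p = 0.063) and when any of 5 libraries was left out in turn (adjusted p from 0.057 to 0.11). The third gene of this cluster, the maternally expressed Ppp1r9a, fell in both lines as given above.

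Peg13, a noncoding RNA that lies within the gene Trappc9 on chromosome 15 (72805600 to 72810324, minus strand), had over 100 counts in each EG1 library and at most 10 in each OdG library. Raw counts were 0 and 0 in OdG WT, 1 and 2 in line 1, 10 and 3 in line 2, 124, 119 and 125 in EG1 WT and 133, 136 and 129 in EG1 KO. Relative to the limit that 3 counts over the group set in OdG WT, the observed level was 74.5-fold in EG1 WT and 4.24-fold in line 2. These ratios make no allowance for counting error in EG1 WT or in line 2, which had 13 counts, 10 of them in replicate 1. EG1 WT exceeded line 2 by 17.6 times (95% exact interval 10.1 to 33.3, for counting error only). No fitted fold change is given against OdG WT, since it would depend on the prior count. EG1 KO was not called against EG1 WT (log2 0.19 ± 0.12).

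Mest, a hydrolase-like gene of mesoderm, was lowest in OdG WT. It was at 24.3 and 22.3 CPM in OdG WT, 43.5 and 46.9 in line 1 and 52.1 and 54.0 in line 2. In EG1 it was at 41.0, 40.1 and 40.0 CPM in WT and 40.1, 44.1 and 42.7 in KO. OdG WT lay below the other 10 libraries. Mest rose 1.94-fold in line 1 (log2 0.96 ± 0.0738, adjusted p = 8.7e-09) and 2.29-fold in line 2 (1.19 ± 0.0723, adjusted p = 2.2e-10), and EG1 KO was not called (0.07 ± 0.0572). Exons of Copg2 on the other strand cover 23.1% of the annotated exon bases of Mest, and reads there cannot be assigned without the strand setting. Copg2 itself fell in line 1 (-0.22 ± 0.0473, adjusted p = 0.00097) and line 2 (-0.13, adjusted p = 0.022), and was lower in EG1 WT than in OdG WT (-0.36).

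Plagl1, a zinc finger transcription factor of growth control, was called in every comparison, in both directions. It was at 415 and 403 CPM in OdG WT, 521 and 521 in line 1, 380 and 384 in line 2, 210 to 212 in wild-type EG1 and 247, 265 and 254 in EG1 KO. It rose in line 1 (log2 0.35 ± 0.031, adjusted p = 4.5e-08) and in EG1 KO (0.28 ± 0.0357, adjusted p = 1.3e-06), fell slightly in line 2 (-0.09 ± 0.0312, adjusted p = 0.019, lost with DESeq2 at adjusted p = 0.083) and was 1.94-fold lower in EG1 WT than in OdG WT. Impact, a regulator of translation under amino acid stress, fell in all 3 KO lines. It was at 199 and 203 CPM in OdG WT, 165 and 164 in line 1, 119 and 123 in line 2, 159 to 166 in wild-type EG1 and 133, 146 and 145 in EG1 KO. The log2 fold changes were -0.28 ± 0.0375 (adjusted p = 6.7e-06), -0.72 ± 0.0385 (adjusted p = 3.9e-11) and -0.20 ± 0.0398 (adjusted p = 0.00082), and KO and WT libraries of a parental line did not overlap.

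Zdbf2, a gene that affects growth through the hypothalamus, was at 148 and 171 CPM in OdG WT, 223 and 212 in line 1, 175 and 180 in line 2, 226 to 241 in wild-type EG1 and 218 to 253 in EG1 KO. It rose in line 1 (log2 0.45 ± 0.0532, adjusted p = 1.5e-06), and its small rise in line 2 (0.16 ± 0.0538) did not hold when OdG WT replicate 1 was left out (adjusted p = 0.22). Mcts2, a retrogene within H13, was at 10.7 and 11.0 CPM in OdG WT and at 13.8 to 16.9 in the KO libraries of OdG. It rose in line 1 (log2 0.45 ± 0.109) and line 2 (0.64 ± 0.107), and its reads may be split with its near-identical source gene Mcts1. Its host H13 moved the other way, falling by 0.27 (SE 0.0642) in line 1 and by 0.80 (SE 0.0674) in line 2.

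Inpp5f, a phosphoinositide phosphatase gene of which only some transcripts are imprinted, was at 25.2 and 27.7 CPM in OdG WT, 25.9 and 25 in line 1, 18.3 and 21.2 in line 2 and 9.92 to 11.7 in the 6 EG1 libraries. It fell in line 2 (log2 -0.41 ± 0.0916, adjusted p = 0.00091) and was 2.41-fold lower in EG1 WT than in OdG WT (adjusted p = 1.1e-13). Zrsr1, a splicing factor retrogene within Commd1, was at 45.7 to 48.9 CPM in OdG WT and line 1 and at 37.5 and 37.0 in line 2, where it fell (-0.34 ± 0.064, adjusted p = 0.00023). In EG1 it was at 47.8 to 51.4 CPM. Its reads may be split with Zrsr2. Nnat, a small membrane protein of the endoplasmic reticulum, lay at 2.91 to 6.07 CPM across all libraries. Its fall in line 1 (log2 -0.58 ± 0.215, adjusted p = 0.03) was lost with DESeq2 (adjusted p = 0.17). Nap1l5, a retrogene within Herc3, was at 0.315 to 0.723 CPM in the OdG libraries and 0.859 to 1.42 in EG1, 3.09-fold higher in EG1 WT than in OdG WT (adjusted p = 0.00095).

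Peg3 and Usp29, and the genes of the Snrpn cluster, moved by small amounts, while Zim1 of the Peg3 cluster is given above. Peg3, a zinc finger gene of growth and maternal care, was at 161 and 150 CPM in OdG WT and between 133 and 147 in the other 10 libraries, with a small fall in line 2 (log2 -0.18 ± 0.0443, adjusted p = 0.0023) and no call in line 1 (-0.09 ± 0.0441). Usp29, which shares its promoter region with Peg3, was at 1.10 to 2.0 CPM and was called in 0 comparisons. In the Snrpn cluster, Ndn, which encodes necdin, was at 25.7 to 37.9 CPM and Peg12, a relative of Frat genes, at 30.4 to 39.9. Both passed the threshold in line 1 and line 2 with log2 fold changes of at most 0.25, and the calls in line 1 were lost with DESeq2 (adjusted p = 0.17 for Ndn and 0.16 for Peg12), as was that of Ndn in line 2 (adjusted p = 0.071). Magel2, a partner of ubiquitin ligases, was at 0.458 to 1.48 CPM and was called in 0 comparisons.

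The KO lines of OdG differed from each other in 18 of 33 genes (8 higher in line 2, 10 lower), where 37.8% of all genes did (18.6% higher, 19.2% lower). Of 13 maternally expressed genes 5 were higher in line 2 (Grb10, Cdkn1c, Ascl2, Ppp1r9a and Gnas) and 2 lower (Cd81 and Tspan32). Of 20 paternally expressed genes 3 were higher (Gab1, Slc38a4 and Mest) and 8 lower (Sgce, Plagl1, Impact, Peg10, Inpp5f, Zrsr1, Zdbf2 and Sfmbt2). With DESeq2 the calls of Ascl2 (adjusted p = 0.051), Tspan32 (0.2), Mest (0.076) and Sfmbt2 (0.071) were lost. That of Inpp5f was lost without line 1 replicate 1 or line 2 replicate 1. Gab1, Grb10, Slc38a4, Cdkn1c and Sgce differed by more than 1 on the log2 scale, 5 of 33 genes against 6.76% of all genes. The 2 lines carry the same labelled genotype, and each is a single line.

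In EG1, the KO line differed little from WT. Of 32 genes tested, 4 were called, 2 higher (Plagl1 and Peg10) and 2 lower (Impact and Slc38a4), against 7.66% of all 14016 genes (3.60% higher, 4.06% lower). All 4 are paternally expressed, and 0 of 11 maternally expressed genes were called. The largest of the 4 changes was 1.21-fold (Plagl1). The median log2 fold change was 0.01 in each parental class.

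The wild-type lines EG1 and OdG differed in 28 of 34 genes (12 higher in EG1, 16 lower), against 70.3% of all 14977 genes (35.0% higher, 35.4% lower). Of 13 maternally expressed genes 3 were higher and 8 lower in EG1, with a median log2 fold change of -0.65, and of 21 paternally expressed genes 9 were higher and 8 lower, with a median of 0.20. Changes past 1 on the log2 scale were called in 13 of 34 genes, against 20.8% of all genes. Parental line and deposited table coincide, so that a difference between lines and a difference between the 2 sets of libraries cannot be told apart.

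Whether Etl4 KO acted differently in EG1 and OdG was tested as an interaction over all 12 libraries, with the mean of the 2 OdG lines as the OdG effect. It was called in 19 of 34 genes (12 with the higher effect in EG1, 7 with the lower), against 39.8% of all genes (19.5% higher, 20.2% lower). By class these were 6 higher and 1 lower of 13 maternally expressed genes, and 6 higher and 6 lower of 21 paternally expressed genes. Mest is an example: it rose in both OdG lines and was not called in EG1, a difference of -1.0 ± 0.0865 (adjusted p = 1.1e-10). For Gab1 (-1.29 ± 0.0629), Grb10 (-0.82 ± 0.0905) and Slc38a4 (-0.47 ± 0.0533) the OdG effect is the mean of 2 lines that differ. When the 4 KO libraries of OdG were taken as 1 group, part of the spread between the lines entered the error. Only Kcnq1ot1, Ppp1r9a and Mest of these 19 were then still called, and 20.5% of all genes. That run counts 4 libraries of 2 lines as 4 replicates, and EG1 has 1 KO line, so it is no test over independent lines.

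Genes known to keep, set or erase DNA methylation at imprints formed a list of 16, of which 15 were tested. In each KO line of OdG 11 rose and 1 fell, with a median log2 fold change of 0.25 in line 1 and 0.31 in line 2, against -0.01 over all genes in each. Of all genes, 26.8% rose in line 1 and 30.0% in line 2. Of the 8 ESC markers 7 rose and 1 fell in each line (median 0.29 and 0.19), and their part in this list's values was not tested. Trim28 was at 834 CPM in OdG WT, 1290 in line 1 and 1380 in line 2 by group mean (log2 0.63 ± 0.0255 and 0.74 ± 0.0255), the de novo methyltransferase Dnmt3b at 80.3, 149 and 186 (0.90 ± 0.0423 and 1.22 ± 0.0416), and Zfp57 at 202, 285 and 340 (0.50 ± 0.0345 and 0.76 ± 0.0343). Tet1 rose as well (0.42 ± 0.0307 and 0.49 ± 0.0306). Dnmt3l, a cofactor of the de novo methyltransferases, was at 36.7, 29.8 and 54.5 CPM in the same order, and Tet2 at 253, 284 and 212. In EG1 KO, where 3.60% of all genes rose, 4 rose and 0 fell, led by Dnmt3l (0.68 ± 0.0589, adjusted p = 5.6e-10). Between WT lines 10 were higher and 4 lower in EG1 (median 0.35), where 35.0% of all genes were higher and 35.4% lower. The largest of these differences was that of Dppa3, at 20.3 CPM in OdG WT and 0.948 in EG1 WT. Its log2 fold change was -4.41 ± 0.159 (adjusted p = 4.1e-21). Of the genes that hold or adjoin the imprinted genes above, 5 rose and 2 fell of 21 tested in line 1, 6 rose and 7 fell in line 2, and 0 of 17 were called in EG1 KO. The shares called over all genes were 52.8%, 59.9% and 7.66%. Herc3, the host of Nap1l5, was at 7.76 CPM in OdG WT, 8.75 in line 1, 20.8 in line 2 and 28.6 in EG1 WT, and Adam23, a neighbour of Zdbf2, was at 0.933, 2.25, 5.42 and 2.24. Herc3 thus lay in line 2 nearer to EG1 WT than to line 1, as did Gab1 and Slc38a4. By group mean so did, among others, H13 (41.8 CPM in line 1, 28.9 in line 2, 30.2 in EG1 WT), Grb10, Mcts2, Phlda2, Tspan32, Ago2, Nnat and Sgce. The likeness is therefore not particular to Herc3, Gab1 and Slc38a4, and its share over all genes was not counted. Herc3 was named by the rule on adjusted p, and the likeness was noticed after its values were seen.

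The RefSeq table of promoter windows (250 bases before to 50 after each start, GRCm38.p6) held 48 windows for 31 of the 37 genes. The letters TGCCGC, the core of the site bound by ZFP57, were searched on both strands (GCGGCA on the other), and each match holds a CG pair. They occurred in 11 of 48 windows (22.9%), of 10 genes, and in 11.6% of all 32851 windows of the same length. Those 10 genes were Zdbf2, Mcts2, Nnat, Mest, Nap1l5, Zim1, Snrpn, Osbpl5, Plagl1 and Grb10. The median number of CG pairs was 16 in the windows of the imprinted genes and 7 in all windows. In the Mest sequence printed above the letters occur 2 times, and in the printed Gab1, Slc38a4, Sfmbt2 and Grb10 sequences 0 times. In the first Mest entry, which is not printed, they occur 0 times. The Grb10 match reaches into the 50 bases after the start, which are not printed. Imprinting control regions often lie outside promoter windows, and no match says only that the letters are absent from these bases.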

How the data were processed

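RNA-seq of 12 libraries in 5 groups was analysed from 2 deposited tables. Libraries were made from 1 µg of Trizol-extracted RNA with a NEBNext Ultra kit, per the labels' protocols. The build mm10 and the tools featureCounts 1.6.4, HISAT2 2.1.0, DESeq2 and CASAVA are named in the submitters' processing notes. The authors deposited raw counts per gene symbol, not normalized. Gene annotation, filters and strand setting: not given in the sources used here. Total counts were 16110028 to 19706599 per library. In a chi-square test, replicates of each group differed beyond sampling noise (1.84 to 3.86 per degree of freedom).

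Counts were tested with edgeR 4.0.16 in R 4.3.3 (filterByExpr, TMM scaling, quasi-likelihood, 1 mean per group, two-sided), fitted to the OdG table (14413 genes), the EG1 table (14016 genes) and, for comparisons across lines, all 12 libraries (14977 genes), with Benjamini-Hochberg adjustment over all genes of a fit and calls under 0.05. Errors of log2 fold changes are standard errors. CPM are on 1 TMM scale over all 12 libraries. The filter kept 33, 32 and 34 of the 37 genes. Genes reaching a mean of 1 CPM in a group are described singly. Of other lists, up to 4 called genes per comparison were named by adjusted p, besides genes that hold or adjoin a gene described, and markers at 0 counts. Exon lengths and coordinates come from GENCODE M21 (GRCm38). The script was tested on simulated counts. DESeq2 1.42.0, other size factors, other filters, a replicate block and leaving out each library were tried. Same-numbered libraries did not deviate together (correlations from -0.05 to 0.04), so replicate numbers were not used as pairs. The genes and lists were chosen with earlier results of these data known.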

Additional observations from a re-analysis of the deposited data

Results flagged for a closer look

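The effect of Etl4 KO differed between EG1 and OdG (edgeR interaction, EG1 effect minus OdG effect, log2) in 19 of the 34 genes tested. Positive differences were called for Zim1 (1.54), Sgce (1.08), Ascl2 (0.84), Tspan32 (0.66), Kcnq1ot1 (0.56), Ppp1r9a (0.46), Peg10 (0.34), Impact (0.31), Zrsr1 (0.22), Cd81 (0.21), Gnas (0.18) and Plagl1 (0.15). Negative differences were called for Gab1 (-1.29), Mest (-1.0), Grb10 (-0.82), Slc38a4 (-0.47), Mcts2 (-0.34) and Zdbf2 (-0.29). For Peg13 the fitted difference was -4.54, but with 0 counts in OdG WT its size depends on the prior count and is no bound. The share among all genes was 39.8%. Kcnq1ot1, Ppp1r9a and Mest were still called with the 4 KO libraries of OdG as 1 group, and the other 16 were not. Groups of 2 and 3 libraries were not tested for outlying libraries.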

How the results depend on the processing

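Of 112 called changes of single genes, 0 reversed under any alternative run and 37 lost their call in at least 1, 27 of them when a library was left out. DESeq2 kept 94 of 112, its size factors in edgeR 112 of 112, no filter 111 of 112, and a filter at 1 CPM 106 of the 108 it could test. The replicate block kept 111 of 112 (the rise of Gab1 in line 1 was lost, adjusted p = 0.059) and left 18, 24, 18, 4, 28 and 19 genes called in line 1, line 2, line 2 against line 1, EG1 KO, EG1 WT against OdG WT and the interaction. Called genes in EG1 KO ranged from 2 to 5 when single libraries were left out, with 2 without EG1 WT replicate 1 or without EG1 WT replicate 3. The interaction called 3 genes, in place of 19, with the 4 OdG KO libraries as 1 group. Part of the spread between lines then entered the error, with 4 libraries of 2 lines counted as 4 replicates. Over all genes, DESeq2 called 3217 where edgeR called 5454 for line 2 against line 1, and 669 where edgeR called 1074 for EG1 KO, and the cause was not tested. Slc22a18 and Zim1, whose calls were among those lost, lay under 1 CPM by group mean, and the part of depth was not tested. With 2 libraries per OdG group, leaving out 1 leaves a lone library that is assumed to vary like the others.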
